A study of Mus musculus with 12 samples.

Results

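The Hox clusters of the mouse carry microRNA genes between and inside their protein-coding genes, and 5 mature microRNAs of the miR-10 and miR-196 families from these genes are described here: miR-10a-5p, miR-10b-5p, miR-196a-5p, miR-196b-5p and miR-196a-1-3p. They were taken by name from the table of 616 mature microRNAs, and all 5 were listed in it. The study sequenced small RNA from gonads of CD1 mouse embryos, split with magnetic beads against the surface antigen CD15 into primordial germ cells (PGC) and the remaining gonadal somatic cells (SC). Each fraction was prepared from female and from male gonads at embryonic day (E) 11.5, E12.5 and E13.5, from pools of about 80 gonads with the adjoining mesonephros taken off. The 12 libraries are thus 6 of PGC and 6 of SC, with 1 library for each combination of cell type, sex and stage. No animal carried a transgene, mutation or treatment according to the labels. The submitters gave a PGC enrichment of 93 to 96% and an SC purity of over 90%, so that each fraction can hold cells of the other.

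MicroRNAs are short RNAs cut from a hairpin precursor. One arm of the hairpin, the 5p or the 3p arm, is usually the more abundant product and guides the silencing of messenger RNAs, chiefly by pairing of its seed, bases 2 to 8, with target sites. The Hox genes encode transcription factors that set position along the body axis, and miR-10 and miR-196 are transcribed with them, in domains that follow the neighbouring Hox genes. miR-196 is known for silencing Hoxb8 in mouse embryos, and miR-10 for targeting Hox messenger RNAs in zebrafish. Gonadal somatic cells and primordial germ cells come together at the genital ridge in the posterior trunk, and between E11.5 and E13.5 the gonad takes on its male or female form.

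The mature sequences are shown because the members of each pair differ by a single base, which bears on how their reads can be told apart. They are from RefSeq (mouse build GRCm38.p6), which held all 14 microRNAs looked up, and capitals mark the seed.
miR-10a-5p: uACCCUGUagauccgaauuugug
miR-10b-5p: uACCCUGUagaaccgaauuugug
miR-196a-5p: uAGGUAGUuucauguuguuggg
miR-196b-5p: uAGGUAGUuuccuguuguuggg
miR-196a-1-3p: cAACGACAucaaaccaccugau
miR-10a-3p: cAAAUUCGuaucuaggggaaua
miR-10b-3p: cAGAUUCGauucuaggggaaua
miR-10a-5p and miR-10b-5p share the seed ACCCUGU and differ by U12A, counted from the 5′ end with the base of miR-10a-5p first. miR-196a-5p and miR-196b-5p share the seed AGGUAGU and differ by A12C in the same notation. The opposite arms of the miR-10 hairpins differ at 3 positions (A3G, U9A and A10U from miR-10a-3p to miR-10b-3p), the first of them inside the seed. miR-196a-1-3p has its own seed, AACGACA. A read with the base at position 12 misread, or aligned with a mismatch there, could be counted for the other member of a 5p pair, and the sources used here do not give the mismatch setting.

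The hairpins lie in all 4 Hox clusters. In GRCm38.p6, Mir10a is at chr11:96317165-96317274 on the plus strand, within the RefSeq span of Hoxb3 and 0.993 kb before Hoxb4, while in GENCODE it lies outside all Hox transcripts. Mir10b is at chr2:74726070-74726137 on the plus strand, within the spans of Hoxd3 and Hoxd4, and the GENCODE transcripts of both genes have an intron there. miR-196a-5p comes from a pair of hairpins with the same mature sequence, so its reads cannot be assigned to either gene. These are Mir196a-1 at chr11:96265164-96265265, 6.07 kb before Hoxb9, and Mir196a-2 at chr15:102973350-102973434, between Hoxc10 and Hoxc9, both on the plus strand. In GENCODE, Mir196a-1 lies outside Hox transcripts and Mir196a-2 in an intron of a Hoxc5 transcript. Mir196b is at chr6:52230081-52230165 on the minus strand, between Hoxa9 and Hoxa10, and lies in an exon of 2 of the 3 GENCODE Hoxa9 transcripts that span it. miR-196a-1-3p is specific to Mir196a-1.

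**Figure D1:**
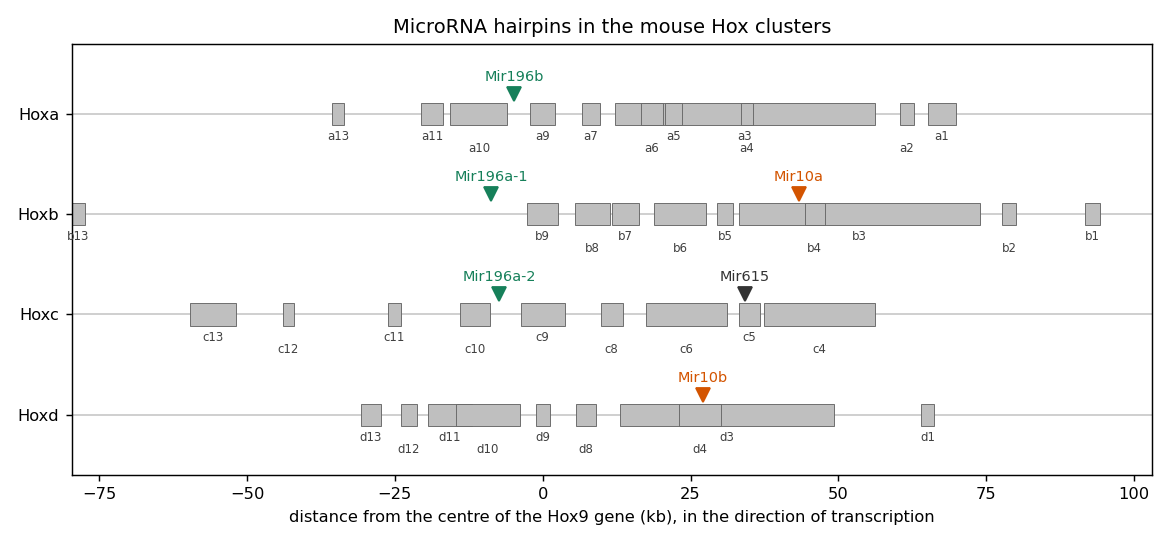
The 4 mouse Hox clusters are drawn to scale, with the distance from the centre of the Hox9 gene in kilobases on the horizontal axis and the clusters one above the other. Grey boxes are Hox gene spans of RefSeq GRCm38.p6 and triangles are microRNA hairpins; the 3 miR-196 hairpins lie near Hox9 in 3 clusters and the 2 miR-10 hairpins near Hox4 in 2 clusters.

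The deposited values were whole reads divided by 1 size factor per library, with nothing listed below 5 reads. The libraries held 166804 to 1221211 microRNA reads in PGC and 611229 to 1768825 in SC, with both E12.5 PGC libraries the shallowest. Levels are given here as reads per 1000000 microRNA reads (RPM), so that every library has the same total; a value of 0 stands for fewer than 5 reads, which was 2.83 to 29.98 RPM depending on the library. The size factors were 1.08 to 1.58 in PGC and 0.614 to 1.15 in SC, and did not follow the reads, so comparisons on the deposited scale are given beside those in RPM. The miR-290 cluster microRNAs, markers of early germ cells and pluripotent cells (6 of 6 listed), summed to 59370 to 118106 RPM in 5 PGC libraries and to 206 to 5187 RPM in the 6 SC libraries. In the PGC female E11.5 library they summed to 1874 RPM, far below the other PGC libraries, which goes against its label. That sum lay inside the SC range through the E13.5 SC libraries (2985 and 5187 RPM in females and males), and above the 274 and 206 RPM of female and male SC at E11.5. Many of the fits that use this library, but not all, are given with and without it. Those of miR-10a-3p, miR-10b-3p and miR-99b-5p in PGC versus SC are among those given with it. Markers of mesenchyme and smooth muscle (5 of 5 listed) summed to 8143 to 83830 RPM in PGC and 68816 to 114203 RPM in SC, with the highest PGC values in both E11.5 libraries. With 1 library per condition there were no biological replicates, and the p-values reflect nothing but how these libraries varied across stages and sexes. In bulk fractions, fewer cells of a type and less of a microRNA per cell cannot be told apart.

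miR-10a-5p and miR-10b-5p were among the microRNAs with the most reads in the PGC and SC libraries, apart from miR-10a-5p in SC male E13.5. Together the 5 members took 10.1 to 20.4% of microRNA reads in PGC and 10.3 to 21.4% in SC. In PGC, miR-10a-5p stood at 68820, 113744 and 62811 RPM in females and at 59767, 92299 and 49416 RPM in males, in order of stage from E11.5 to E13.5, rank 1 or 2 in each library. In SC, it stood at 57747, 76903 and 47961 RPM in females and at 47647, 73662 and 6955 RPM in males at the same stages. It thus ranked 2 or 3 in 5 of the SC libraries and 40 in SC male E13.5. The E12.5 libraries were the highest of each cell type and sex, and SC male E13.5 was low against every other library.

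miR-10b-5p ranked 1 to 3 in all 12 libraries. In PGC, it stood at 81577, 88697 and 60482 RPM in females and at 47444, 66757.5 and 50576 RPM in males in order of stage. In SC, it stood at 72304.5, 131734 and 99612 RPM in females and at 51974, 131716 and 99773 RPM in males. The female and male SC libraries lay close together at E12.5 and E13.5, and SC male E13.5, low for miR-10a-5p, was not low for miR-10b-5p. The PGC and SC ranges overlapped for both miR-10 members, as they did for the other 3; ranges without overlap were seen for 4.44% of the microRNAs tested.

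The miR-196 members had far lower read levels. In PGC, miR-196a-5p stood at 3162, 1307 and 579 RPM in females and at 1941, 608 and 227 RPM in males in order of stage. In SC, it stood at 2489.8, 4571 and 2864 RPM in females and at 2397, 3539.9 and 737 RPM in males. Each PGC library of either sex was lower than that of the stage before, whereas in SC the E12.5 libraries were the highest of each sex. The lowest PGC value, in males at E13.5, rested on 89 reads (95% exact binomial interval 182 to 279 RPM).

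miR-196b-5p stood in PGC at 1249, 359.7 and 395 RPM in females and at 924, 342 and 316 RPM in males in order of stage. In SC, it stood at 1304, 1223 and 1201 RPM in females and at 1096, 901 and 120.4 RPM in males. The E12.5 and E13.5 PGC values, of 60 to 170 reads each, had overlapping counting intervals within females and within males. In SC, 5 libraries lay between 901 and 1304 RPM, and SC male E13.5 stood far below them with 125 reads. Counting intervals given here cover counting error only, and not the spread between preparations or any copying of molecules by PCR.

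miR-196a-1-3p, the opposite arm of Mir196a-1, was near the detection limit. It was listed at 0 in 3 PGC libraries (male E11.5, female E12.5 and female E13.5) and stood at 13.9, 27.1 and 20.4 RPM in the other 3, on 17, 5 and 8 reads. In the 6 SC libraries it ranged from 12.99 to 36.2 RPM on 11 to 54 reads. In the shallow PGC female E12.5 library, 5 reads were 29.98 RPM, so most SC levels would have been listed at 0 there.

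**Figure D2:**
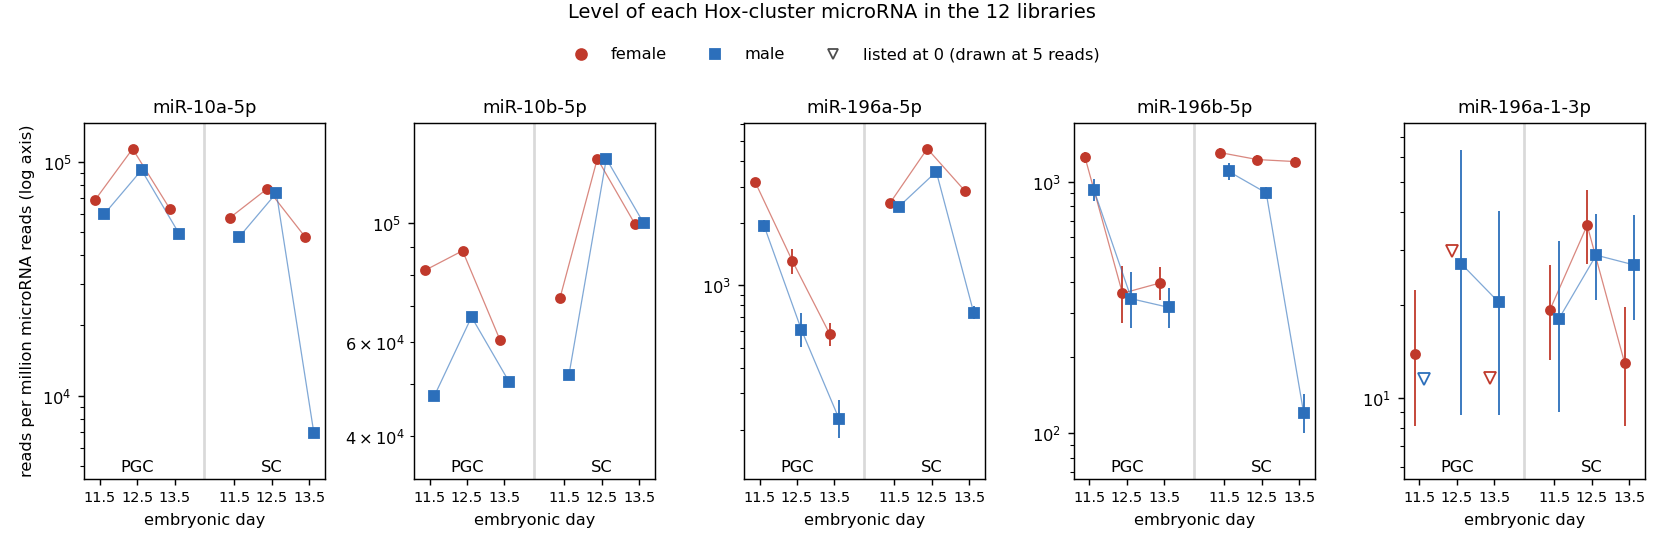
Each panel plots 1 member in reads per 1000000 microRNA reads on a log axis against embryonic day, with PGC left and SC right, females as circles and males as squares; bars are 95% exact binomial intervals of counting and open triangles are values listed at 0, drawn at 5 reads. miR-196a-5p is lower at each later stage in PGC of both sexes, and SC male E13.5 is the lowest SC library for miR-10a-5p, miR-196a-5p and miR-196b-5p while miR-10b-5p is at 99773 RPM there.

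Of the 5 members, miR-196a-5p was the one that differed between PGC and SC at equal totals, being lower in PGC. Its level was 1304 ± 1098 RPM in PGC and 2766 ± 1281 RPM in SC (SD, n = 6 each), and with PGC and SC of the same stage and sex paired its log2 difference was -1.37 ± 0.40 (SE; adjusted p = 0.0181, limma with Benjamini-Hochberg adjustment over 473 microRNAs), a level 2.59-fold lower in PGC. It was lower in PGC in 5 of 6 pairs: the log2 differences were 0.34 in females and -0.30 in males for the E11.5 pairs, then -1.80 and -2.52 for the E12.5 pairs and -2.29 and -1.66 for the E13.5 pairs. The larger differences were thus those of the E12.5 and E13.5 pairs, and the E11.5 pairs lay on either side of 0. The E11.5 pair above 0 was the female pair, whose PGC library goes against its label. A dependence on stage was not shown, since the PGC change minus the SC change from E11.5 to E13.5 was not called (-1.99, adjusted p = 0.135, limma). The call held in 11 of 18 distinct alternative fits, with values from -3.61 to -0.98 and adjusted p from 0.000397 to 0.232. Of the 6 fits that left out 1 pair, 4 lost the call: without an E12.5 or an E13.5 pair the difference was -1.31 to -1.14 (adjusted p = 0.0507 to 0.0741, limma). Without the PGC female E11.5 library and its partner it was -1.71 (adjusted p = 0.00304, limma). Across all microRNAs tested, 42.9% were called in either direction and 25.8% were called lower in PGC, so 1 of 5 members lower is near that background.

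The other members did not pass the threshold at equal totals. miR-10a-5p was higher in PGC in 6 of 6 pairs, with a log2 difference of 0.78 ± 0.34 (adjusted p = 0.0768, limma with Benjamini-Hochberg), which came to 0.37 without SC male E13.5 and its partner (adjusted p = 0.185) and to 0.89 without the female E11.5 pair (adjusted p = 0.0619). miR-10b-5p was lower in PGC in 5 of 6 pairs, by -0.53 ± 0.25 (adjusted p = 0.0928), and passed without the PGC female E11.5 library and its partner, at -0.68 (adjusted p = 0.0381, limma). miR-196b-5p had a difference of -0.61 ± 0.42 (95% interval -1.53 to 0.31; adjusted p = 0.252, limma), with 5 of 6 pairs lower in PGC and the male E13.5 pair the exception. Without the female E11.5 pair it was -0.72 (adjusted p = 0.203, limma). miR-196a-1-3p was lower in PGC in 6 of 6 pairs, by -0.92 ± 0.40 (adjusted p = 0.0766, limma), and by -1.05 without the female E11.5 pair (adjusted p = 0.0582). With 3 PGC values at 0 the size of this difference depended on the pseudocount: it was -2.36 at 1 RPM, -0.45 at 30 RPM and -1.56 with limma voom.

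On the deposited scale the same comparison gave another picture, since the median difference of all 473 microRNAs was -2.57 there and -0.47 at equal totals. All 5 members were called lower in PGC on the deposited scale, where 85.4% of microRNAs were called and 77.2% were called lower. Their log2 differences were -1.45 for miR-10a-5p, -2.77 for miR-10b-5p, -3.61 for miR-196a-5p, -2.83 for miR-196b-5p and -3.51 for miR-196a-1-3p, with adjusted p from 0.000397 to 0.0361 (limma with Benjamini-Hochberg). miR-10a-5p therefore changed direction with the scale. Relative to the median of all microRNAs, it was the member that stood above it on both scales.

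**Figure D3:**
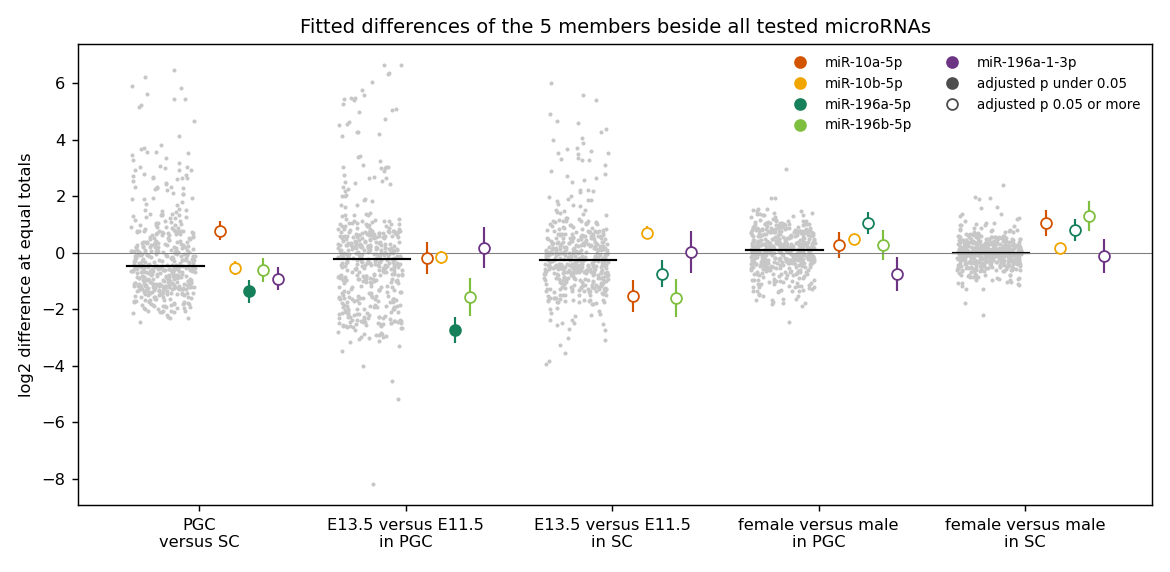
Fitted log2 differences at equal totals (vertical axis) are shown for 5 comparisons along the horizontal axis; grey points are the 473 microRNAs tested, black lines their medians, and coloured points with SE bars the 5 members, filled where the adjusted p was under 0.05. The filled points are miR-196a-5p in PGC versus SC, at -1.37, and in E13.5 versus E11.5 within PGC, at -2.74.

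Within PGC, miR-196a-5p fell between E11.5 and E13.5 in both sexes. It had 579 and 227 RPM in female and male PGC at E13.5, against 3162 and 1941 RPM at E11.5, folds of 5.46 and 8.55 lower. The fitted log2 change was -2.74 ± 0.47 (adjusted p = 0.00313, limma with Benjamini-Hochberg), a level 6.66-fold lower at E13.5, and it was called in 24 of 24 alternatives, with values of -3.38 to -2.42 and adjusted p of 0.000603 to 0.0356. Without the PGC female E11.5 library it was -2.99 (adjusted p = 0.0176, limma), and on the deposited scale -3.38 (adjusted p = 0.000603). Of all microRNAs tested, 33.4% were called in this comparison and 23.9% were called lower at E13.5, and 26.6% were called lower on the deposited scale.

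miR-196b-5p had 395 and 316 RPM in female and male PGC at E13.5, against 1249 and 924 RPM at E11.5. Its log2 change of -1.58 ± 0.67 did not pass (adjusted p = 0.107, limma with Benjamini-Hochberg). In the fit of the 6 PGC libraries alone, where the spread of the SC libraries does not enter, the same change passed (adjusted p = 0.0221), as it did on the deposited scale (-2.21, adjusted p = 0.0263) and without SC male E13.5 (adjusted p = 0.00718). It was called in 6 of 24 alternatives in all, and among those that did not call it were the fit without the PGC female E11.5 library (-1.46, adjusted p = 0.360, limma), median-of-ratios scaling (-1.26, adjusted p = 0.153), stage as a slope (adjusted p = 0.180) and limma voom (adjusted p = 0.153). miR-10a-5p and miR-10b-5p changed by -0.20 ± 0.57 and -0.17 ± 0.24 (adjusted p = 0.827 and 0.634, limma), with 95% intervals of -1.50 to 1.09 and -0.71 to 0.37. Without the PGC female E11.5 library they were -0.26 and 0.054. The change of miR-196a-1-3p, 0.17 ± 0.73, rested on 2 libraries listed at 0 among the 4 (adjusted p = 0.891, limma), and was 1.68 without the PGC female E11.5 library (adjusted p = 0.0661).

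Some marker microRNAs of other cells were lower at E13.5 together with miR-196a-5p in PGC, and others were higher. The summed mesenchymal and smooth muscle markers, with none of the 5 at 0, were 26533 and 8143 RPM in female and male PGC at E13.5, against 83830 and 57896 RPM at E11.5. The summed endothelial markers were 11230 and 6751 RPM at E13.5, against 51442 and 27782 RPM at E11.5. The liver marker miR-122-5p was listed at 0 in both E13.5 PGC libraries, against 4280 and 2015 RPM at E11.5, and the erythroid and muscle sums were lower at E13.5 too. In the other direction, the gonadal somatic marker miR-202-5p was at 2982 and 997 RPM in female and male PGC at E13.5, against 258 and 155 RPM at E11.5. The kidney and mesonephros markers summed to 3551 and 2598 RPM at E13.5, against 1262 and 1712 RPM at E11.5. In SC these markers summed to 627 to 1003 RPM, below every PGC library. The neural markers, of which miR-9-3p and miR-124-3p were at 0, summed to 3430.5 and 3416 RPM at E13.5, against 981 and 1901 RPM at E11.5. In SC the neural markers summed to 3079 RPM in females at E11.5 and to 117 to 245 RPM in the other libraries. Whether the kidney and neural sets mark admixed cells in PGC was not tested. The part of admixed cells in the change of miR-196a-5p was not tested.

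**Figure D4:**
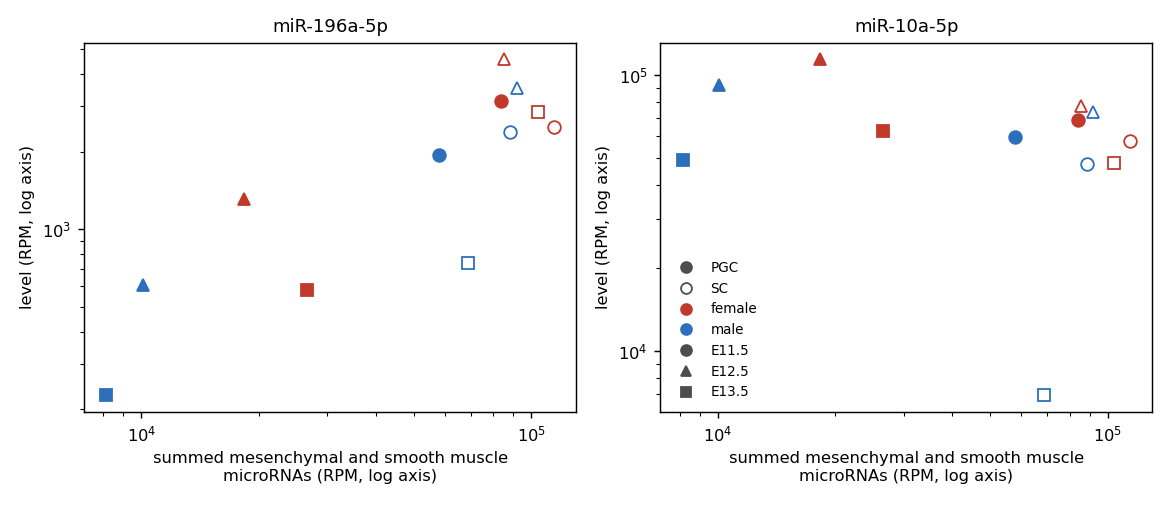
The level of miR-196a-5p (left) and of miR-10a-5p (right) is plotted against the summed level of 5 mesenchymal and smooth muscle marker microRNAs, both in RPM on log axes, with 1 point per library; filled points are PGC, open points SC, red female, blue male, and the shape gives the stage. The PGC libraries with 8143 to 26533 RPM of these markers have 227 to 1307 RPM of miR-196a-5p and 49416 to 113744 RPM of miR-10a-5p.

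In SC, none of the 5 members was called between E13.5 and E11.5, where 9.73% of all microRNAs were called. miR-10b-5p changed by 0.70 ± 0.24 (adjusted p = 0.101, limma with Benjamini-Hochberg) and was higher at E13.5 in both sexes. miR-10a-5p changed by -1.52 ± 0.57, miR-196a-5p by -0.74 and miR-196b-5p by -1.60 ± 0.67 (adjusted p = 0.121, 0.341 and 0.157, limma). For these 3 the sexes stood apart: the E13.5 minus E11.5 log2 differences were -0.27 in females and -2.77 in males for miR-10a-5p, 0.20 and -1.69 for miR-196a-5p, and -0.12 and -3.09 for miR-196b-5p. Without SC male E13.5 the fitted changes were -0.21, 0.12 and -0.16, and with it as the sole E13.5 library, that is without SC female E13.5, they were -2.83, -1.61 and -3.04 (adjusted p = 0.00414, 0.0487 and 0.0120, limma). In those fits the lone E13.5 SC library was assumed to vary as the others did.

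The test of whether PGC and SC changed differently called none of the 5 members, against 3.59% of all microRNAs. For miR-196a-5p the PGC change minus the SC change was -1.99 (adjusted p = 0.135, limma with Benjamini-Hochberg), and for miR-10a-5p it was 1.32 ± 0.80 (adjusted p = 0.356). Without the PGC female E11.5 library these were -2.24 and 1.26 (adjusted p = 0.1998 and 0.551, limma). The fall of miR-196a-5p in PGC was therefore not shown to differ from its change in SC.

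The SC male E13.5 library was low for both arms of miR-10a. miR-10a-3p was at 90.5 RPM there, against 654 RPM in SC male E12.5. The share of the 3p arm among reads of both arms was 1.28% (95% exact binomial interval 1.04 to 1.57%), beside 0.880 to 1.13% in the other 5 SC libraries. From E12.5 to E13.5 in male SC, the log2 change was -3.40 for miR-10a-5p, -2.72 for miR-10a-3p, -2.81 for miR-196b-5p, -2.25 for miR-196a-5p and -0.40 for miR-10b-5p, beside a median of 0.00 over 473 microRNAs. By size these were the 6th, 10th, 9th, 17th and 164th lowest changes. In female SC the same changes were -0.68, -0.47, -0.03, -0.67 and -0.40. A fall in male SC was not particular to microRNAs of the Hox clusters. miR-100-5p, a relative of miR-10 from outside them, changed by -2.49 there, the 14th lowest, and by -0.27 in female SC. Its relatives miR-99a-5p and miR-99b-5p changed by -0.35 and -0.37 in male SC. The SC male E13.5 library had the highest level of miR-202-5p, which marks somatic cells of the gonad, at 16334 RPM against 136 to 8436 RPM in the other SC libraries. It also had the highest germ cell marker sum of the SC libraries (5187 RPM), the lowest mesenchymal sum (68816 RPM) and the lowest endothelial sum (16088 RPM). The part of cell composition in these levels was not tested, and with 1 library the condition and the preparation cannot be told apart.

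The balance within each pair does not depend on the scaling, since both values come from the same library. miR-10a-5p made up 45.8, 56.2 and 50.9% of the reads of the miR-10 pair in female PGC and 55.7, 58.0 and 49.4% in male PGC in order of stage. In SC, it made up 44.4, 36.9 and 32.5% in females and 47.8, 35.9 and 6.52% in males. The share was higher in PGC than in SC in 6 of 6 pairs, and in SC it was lower at each later stage in both sexes. The paired log2 ratio of miR-10a-5p to miR-10b-5p was 1.32 ± 0.53 higher in PGC (SE, n = 6 pairs), 2.49-fold, with an exact two-sided sign-flip permutation p of 0.03125, the smallest that 6 pairs allow. Adjusted over the 2 pairs of microRNAs examined it was 0.0625, which does not pass 0.05. Without the male E13.5 pair the difference was 0.82, and without the female E11.5 pair it was 1.56, the lowest and the highest of the 6 single omissions.

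Of the reads of both 3p arms, the share of miR-10a-3p was higher in PGC in 5 of 6 pairs. The female E11.5 pair was the exception, with 87.3% in PGC and 88.8% in SC. miR-10a-3p made up 88.7 and 91.3% of the reads of the 3p pair in female and male PGC at E13.5, against 79.4 and 48.7% in female and male SC. miR-10b-3p was counted at 7 to 219 reads per library, which limits the precision of this share, and cross-counting between the members of a pair was not tested.

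Within the miR-196 pair, miR-196b-5p made up 28.3, 21.6 and 40.6% of reads in female PGC and 32.3, 36.0 and 58.2% in male PGC in order of stage. In SC, it made up 34.4, 21.1 and 29.5% in females and 31.4, 20.3 and 14.0% in males. The share was higher in PGC in 5 of 6 pairs. The paired log2 ratio was 0.77 ± 0.52 higher in PGC (SE, n = 6 pairs; exact two-sided sign-flip permutation p = 0.156, the same after adjustment over the 2 pairs of microRNAs). The male E13.5 pair had the widest gap, and without it the difference was 0.31. Without the female E11.5 pair it was 1.01.

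**Figure D5:**
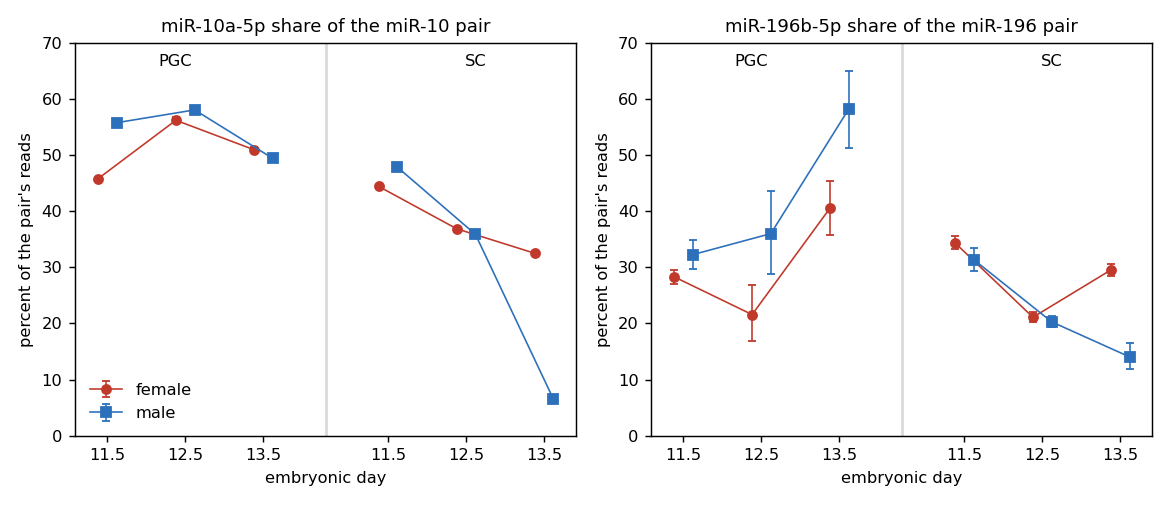
The left panel shows miR-10a-5p as a percent of the reads of miR-10a-5p and miR-10b-5p, and the right panel miR-196b-5p as a percent of the reads of miR-196a-5p and miR-196b-5p, by embryonic day with PGC left and SC right; circles are female, squares male, and bars are 95% exact binomial intervals. miR-10a-5p lies between 45.8 and 58.0% in PGC and between 6.52 and 47.8% in SC.

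No member was called between females and males. Limma with Benjamini-Hochberg adjustment called 0 of 473 microRNAs (0.00%) in PGC and 0 (0.00%) in SC, with 85 and 21 at an unadjusted p under 0.05, and limma voom called 0 in each. miR-196a-5p was higher in female PGC at each of the 3 stages, with 3162, 1307 and 579 RPM in females against 1941, 608 and 227 RPM in males, and a fitted log2 difference of 1.04 ± 0.38 (95% interval 0.15 to 1.92; adjusted p = 0.259, limma), or 1.202 without the PGC female E11.5 library (adjusted p = 0.391). In SC the female minus male difference was 0.79 ± 0.38 for miR-196a-5p, 1.04 ± 0.46 for miR-10a-5p and 1.30 ± 0.54 for miR-196b-5p (adjusted p = 0.927 each, limma). At E13.5 these 3 were 3.89-fold, 6.90-fold and 9.97-fold higher in female than in male SC, while at E11.5 and E12.5 the folds were 1.04 to 1.36. miR-10b-5p differed by 0.16 ± 0.19 in SC (95% interval -0.28 to 0.60). The difference between PGC and SC in the sex difference called 0 of 473 microRNAs, with 57 at an unadjusted p under 0.05 and 0 by limma voom.

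Other microRNAs of the Hox clusters were read for comparison. Of 6 looked up, miR-196b-3p and miR-615-5p were not among the listed microRNAs, and miR-196a-2-3p was listed at 0 in 9 libraries, with 38.4 and 22.9 RPM in female and male SC at E11.5 and 8.27 RPM in female SC at E13.5. In PGC versus SC, 42.9% of all microRNAs were called in either direction and 25.8% were called lower. Among the 3 tested here 1 was called, which is near that background. That was miR-615-3p, from an intron of Hoxc5, with 706 to 3513 RPM in PGC and 1821 to 8759 RPM in SC and a log2 difference of -1.01 ± 0.33 (adjusted p = 0.0296, limma with Benjamini-Hochberg). The call was lost without SC male E13.5 and its partner (-0.82, adjusted p = 0.0849) and kept without the female E11.5 pair (-1.23, adjusted p = 0.00933, limma). Leaving out each library with its partner in turn kept the call in 4 of 12 omissions (adjusted p = 0.00933 to 0.106, limma). These omissions are 6 distinct fits, since leaving out either library of a pair gives the same fit. Over all alternatives, with such repeats counted, the call was made in 13 of 25. miR-10a-3p and miR-10b-3p differed by 0.73 ± 0.38 and -0.47 ± 0.39 (adjusted p = 0.136 and 0.339, limma), with the signs of their 5p arms at equal totals. On the deposited scale the difference of miR-10a-3p was -1.47, and all 3 were called lower in PGC, as were 77.2% of microRNAs. Between E13.5 and E11.5 in PGC, miR-615-3p had a log2 change of -1.60 and was called lower (adjusted p = 0.0207, limma), as were 23.9% of all microRNAs. The call was lost in the fit of stage as a slope (adjusted p = 0.0509) and with limma voom (adjusted p = 0.0541), among others. This change was called in 18 of 24 alternatives, with values of -2.23 to -1.24. Without the PGC female E11.5 library it was -1.96 (adjusted p = 0.0462, limma).

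The miR-99 and miR-100 microRNAs are relatives of miR-10 from outside the Hox clusters. Their seed, ACCCGUA, differs from that of miR-10, and 2 of them are shown so that the likeness can be read, with the seed in capitals.
miR-99a-5p: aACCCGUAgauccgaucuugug
miR-100-5p: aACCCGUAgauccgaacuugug
Of the 3 relatives, 2 were called lower in PGC than in SC: miR-99a-5p by -1.28 ± 0.31 and miR-100-5p by -1.22 ± 0.33 (adjusted p = 0.00763 and 0.0119, limma with Benjamini-Hochberg). miR-99b-5p differed by -0.15 ± 0.30 (adjusted p = 0.688, limma). Across all microRNAs 25.8% were called lower, and on the deposited scale all 3 relatives were called lower, as were 77.2% of microRNAs. Without the female E11.5 pair the differences were -1.58 for miR-99a-5p and -1.49 for miR-100-5p (adjusted p = 0.000815 and 0.00225, limma). Between E13.5 and E11.5 in PGC, the log2 changes were -1.08 for miR-99a-5p and -1.92 for miR-100-5p, both called lower (adjusted p = 0.0113 and 0.0269, limma), as were 23.9% of all microRNAs. They were called in 18 and 17 of 24 alternatives. Among the losses were miR-99a-5p on the deposited scale (adjusted p = 0.123, limma) and with median-of-ratios scaling (adjusted p = 0.0744), and miR-100-5p with limma voom (adjusted p = 0.0656). Without the PGC female E11.5 library these changes were -0.82 and -1.97 and did not pass (adjusted p = 0.164 and 0.111, limma).

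The microRNAs whose levels ran most like each member were ranked by Pearson's r of log2 RPM over the 12 libraries, among 289 microRNAs with a mean of at least 100 RPM. Over the 12 libraries miR-10a-5p ran most like its own opposite arm, miR-10a-3p (r = 0.960), then miR-15b-3p (0.831) and miR-375-3p (0.830). Without SC male E13.5 these were 0.694, 0.740 and 0.202, so that miR-15b-3p stood above miR-10a-3p. For miR-10b-5p they were miR-125b-5p (0.839), miR-322-3p (0.817) and let-7c-5p (0.807). miR-196a-5p ran with miR-100-5p (0.969), miR-1193-3p (0.961) and miR-409-5p (0.953), and miR-196b-5p with miR-7b-5p (0.917), miR-1193-3p (0.840) and miR-181a-1-3p (0.837). For miR-196b-5p these were 0.845, 0.944 and 0.794 without SC male E13.5, with miR-1193-3p the highest of them. For miR-196a-1-3p no coefficient exceeded 0.591. miR-196a-5p and miR-196b-5p had r = 0.806, and 0.890 without SC male E13.5, whereas miR-10a-5p and miR-10b-5p had r = -0.06, and 0.41 without it. The coefficients describe 12 libraries that share cell type, stage and depth, and carry no test.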

How the data were processed

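Small RNA of under 100 bp was sequenced from 12 libraries. Per the submitters' processing notes, reads were handled with FastQC, Trim Galore, Bowtie 1.1.2, build GRCm38 and DESeq. How reads were counted, with what mismatches and on which microRNA annotation is not given in the sources used. The authors deposited a signal, read numbers of mature microRNAs scaled by a size factor of each library: all 7392 values, 1797 of them 0, came out as whole reads within 1e-06 when the smallest value of each library was taken as 5 reads, as was assumed here.

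Each value was divided by its library's sum (RPM), since the size factors ran against the reads (Spearman's rho = -0.52 over the 12 libraries, a description). Differences were tested with limma 3.58.1 (R 4.3.3) on log2(RPM + 10), which understates changes of low microRNAs, for the 473 microRNAs with a mean of at least 10 RPM, all 5 members among them. Benjamini-Hochberg adjustment ran over all 473, with 0.05 as threshold. PGC versus SC had a block term for each pair of the same stage and sex and kept 5 residual degrees of freedom. The other comparisons used 1 fit of the 12 libraries with a mean per cell type and stage and a sex term per cell type, with 4. All comparisons share libraries. Ratios within pairs of microRNAs were tested by exact sign flips. Counting intervals are exact binomial, at 95%.

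The fits were tested on simulated data. Known changes were recovered where they were limited to microRNAs of low or middle abundance; where the most abundant microRNAs were changed too, many unchanged ones were called, because equal totals shift them. This limits every difference in RPM. Alternatives were the deposited scale, other pseudocounts and filters, other models, and libraries left out. Count models with edgeR were planned but not run, since the deposited unit is no count, and limma voom took their place. The members, lists and tests were chosen with earlier results of these data known. Named microRNAs were the 5 members, other Hox-cluster microRNAs, the miR-99 and miR-100 relatives and the 3 of highest r per member.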

Additional observations from a re-analysis of the deposited data

Results flagged for a closer look

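The SC male E13.5 library stood apart from the other 5 SC libraries in 4 of the 7 groups of SC values examined by Dixon's gap ratio, which passed the 95% critical value for 6 samples there. None of the 7 groups of PGC values passed it. The critical value assumes 6 samples of the same condition. The libraries of each group were instead 1 per stage and sex, so no rate of flags by chance applies here. The 4 flags were not independent, since all were of the same library. In addition, miR-10a-5p enters both its own level and its log2 ratio to miR-10b-5p. On log2 levels the gap divided by the range was 0.801 for miR-10a-5p, 0.645 for miR-196a-5p and 0.842 for miR-196b-5p. For the log2 ratio of miR-10a-5p to miR-10b-5p it was 0.7501. The library was the lowest in each case, and miR-10b-5p was at 99773 RPM in it, against 51974 to 131734 RPM in the other SC libraries.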

How the results depend on the processing

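With 1 library per condition, limits of depth fall on the low members: miR-196a-1-3p rested on at most 54 reads. The cause of the changes given here was not tested. PGC versus SC called 203 of 473 microRNAs, and 404 on the deposited scale, 135 of those with a mean of at least 100 RPM, 17 without both E12.5 PGC libraries, 49 without both E13.5 SC libraries, 83 without the block of stage and sex pairs, 113 without both E13.5 male libraries, and 113 to 243 over the 6 fits with 1 pair left out. Its direction reversed on the deposited scale for miR-10a-5p (-1.45) and miR-10a-3p (-1.47), and without both E11.5 PGC libraries for miR-99b-5p (0.048), which ranged from -0.29 to 0.12 with 1 library left out. The call of miR-196a-5p was lost without both E12.5 PGC libraries (-0.98, adjusted p = 0.232, limma), without both E13.5 SC libraries (-1.07, adjusted p = 0.160) and without the block (adjusted p = 0.0971), and miR-10b-5p was called without both E11.5 PGC libraries (-0.81, adjusted p = 0.0066).

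E13.5 versus E11.5 called 158 in PGC, with 85 for stage as a slope, 104 without both E13.5 male libraries and 105 to 161 with 1 library left out. Reversed there were miR-196a-1-3p on the deposited scale (-0.34) and without the E13.5 males (-0.47), miR-10a-5p (0.12), miR-10b-5p (0.15) and miR-10a-3p (0.25) with median-of-ratios scaling, and miR-10a-3p (0.32) without the E13.5 males. With 1 library left out, miR-10b-5p ranged from -0.39 to 0.054, miR-196a-1-3p from -1.33 to 1.68, miR-10a-3p from -0.45 to 0.32 and miR-99b-5p from -0.89 to 0.18. In SC, 46 were called, with 14 for the slope, 0 without the E13.5 males (limma) and 5 to 57 with 1 library left out. Reversed there were miR-196a-1-3p with limma voom (-0.080) and without the E13.5 males (-0.39), and miR-196a-5p without them (0.12). With 1 library left out, these ranged from -0.39 to 0.45 and from -1.61 to 0.12.

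The PGC change minus the SC change called 17, with 8 on the deposited scale, 0 at a pseudocount of 1, 43 at 30, 8 with no filter, 0 for the slope, 0 with limma voom, 0 without the E13.5 males and 0 to 15 with 1 library left out. For miR-196b-5p it was -0.93 on the deposited scale, -0.015 at a pseudocount of 30, -0.27 with limma voom and -1.38 without the E13.5 males, and for miR-196a-1-3p -0.70 on the deposited scale and -0.079 without the E13.5 males. With 1 library left out, these ranged from -1.41 to 1.46 and from -1.36 to 1.65, and miR-10a-5p was called without SC female E13.5 (2.63, adjusted p = 0.0390, limma). Female versus male in SC called 0, and 6 on the deposited scale. There miR-196a-1-3p was 0.30 with deposited values and 0.15 when either both E13.5 SC libraries or the E13.5 males were left out. With 1 library left out it ranged from -0.31 to 0.15, and miR-10b-5p from -0.0011 to 0.24. The PGC minus SC sex difference of miR-10a-5p was 0.11 without both E13.5 SC libraries and 0.083 without the E13.5 males; with 1 library left out it ranged from -1.25 to 0.11, and that of miR-196a-5p from -0.12 to 0.82.

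The log2 ratio of miR-10a-5p to miR-10b-5p was 0.82 to 1.56 higher in PGC with 1 pair left out, each with an exact permutation p of 0.0625, the smallest that 5 pairs allow, and that of miR-196b-5p to miR-196a-5p 0.31 to 1.01. Limma voom, median-of-ratios scaling and the omission of the E13.5 males were added after the data were seen. The planned edgeR fit was not run. Changes between E13.5 and E11.5 could not be fitted without both E11.5 PGC libraries in PGC or without both E13.5 SC libraries in SC. No paired analysis was possible by replicate number, because each condition had 1 library; the block pairs PGC and SC of the same stage and sex.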
